A study of Mus musculus with 15 samples.

Results

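The heat shock proteins of the cytosol and mitochondria were read across 6DT1 cells with and without Clic4, and with and without peroxide. The 10 genes were taken by their symbols from the count table: the small heat shock proteins Hspb1, Hspb7 and Hspb8, the HSP70 genes Hspa8, Hspa1a and Hspa1b, the J-domain partner Dnajb1, the cytosolic HSP90 genes Hsp90aa1 and Hsp90ab1, and the mitochondrial chaperonin Hspd1. All 10 of 10 were present among 55341 symbols, and all 10 were among the 13085 genes with enough counts to test. The 6DT1 line is a line of mouse mammary cancer cells whose strain is labelled FVB/N1. The groups were untreated wild type (WT, 4 libraries, replicates 9 to 12), wild type given 1 µM hydrogen peroxide (H2O2) for 24 h (4 libraries, replicates 13 to 16), untreated CLIC4 knockout (KO, 4 libraries, replicates 1 to 4) and KO given the same peroxide (3 libraries, replicates 5, 7 and 8). Every library comes from this 1 line. Neither the number of knockout clones nor independent culture of the replicates is stated in the labels, so p-values cover the spread between these libraries, which may be technical.

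Heat shock proteins are molecular chaperones: they bind unfolded or aggregating proteins and hold, refold or hand them on. Small heat shock proteins hold unfolding clients without ATP. HSP70 proteins bind and release clients in an ATP cycle that J-domain proteins start, HSP90 proteins mature kinases and receptors at a later step, and the HSP60 chaperonin folds proteins inside mitochondria. Several of these genes are transcribed strongly after heat or other proteotoxic stress by heat shock factor 1 (HSF1), whereas Hspa8 and Hsp90ab1 are the constitutive forms. Tumour cells are known for high chaperone levels.

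Library totals ran from 12.31 to 16.03 M counts. Clic4, the gene that was knocked out, stood at 321 ± 5.05 CPM (SD, n = 4) in untreated WT and 71.3 ± 4.92 CPM (SD, n = 4) in untreated KO, so its mRNA was lowered and not absent. Over all libraries it ran from 313 to 327 CPM in WT and from 64.2 to 75.9 CPM in KO. CPM here means counts per M of library size after scaling by trimmed mean of M-values (TMM). Of 10 epithelial markers, Krt8, Krt18 and Krt19 carried nearly all of the summed 922 to 1062 CPM in the 15 libraries, while Epcam, Cdh1, Krt5 and Krt14 each stayed under 0.2 CPM in every library. Among 16 muscle markers, Myod1, Myog, Myf5 and Actc1 had 0 counts in every library. Tnni1, Tnnt3 and Des had means of 0.691, 0.737 and 0.472 CPM in untreated WT and 2.19, 1.20 and 0.959 CPM in untreated KO. Tnnt2 was lower in KO (1.38 against 0.860 CPM), and the rest had means under 0.3 CPM in both untreated groups. WT replicate 9 carries a knockout entry in its genotype field against its title, had the WT level of Clic4 (326.7 CPM), and held 19.4 CPM of the myeloid gene Lyz2 against a mean under 0.3 CPM in each of the other groups. The blood markers Ptprc and Cd3e and the fibroblast marker Pdgfrb had untreated WT means of 1.13, 0.219 and 0.743 CPM. Their highest values, 4.52, 0.878 and 2.90 CPM, were all in WT replicate 9, and each other group had a mean of at most 0.0186 CPM. Fibroblast markers summed to 16.9 to 22.5 CPM in WT and 11.3 to 14.0 in KO, nearly all from Pdgfra, and blood markers to 386 to 430 and 265 to 305 CPM, nearly all from Cd68. Their part in the results between genotypes was not tested.

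Levels of different genes were compared per length, as the RPKM values of the authors (reads per kilobase per M counts). The length used for each gene is not known here, so the order holds for these RPKM values only. In untreated WT cells the order was Hsp90ab1 at 2592 ± 27.4 RPKM, Hsp90aa1 at 947 ± 27.5, Hspa8 at 511 ± 17.7 and Hspd1 at 418 ± 22.1 (SD, n = 4 each). Hspb8 followed at 39.0 ± 2.12 RPKM, Dnajb1 at 8.92 ± 0.299, Hspb1 at 7.29 ± 0.425, Hspa1b at 3.22 ± 0.449, Hspa1a at 1.25 ± 0.299 and Hspb7 at 0.0211 ± 0.0175 (SD, n = 4 each). The place of Hspa8 is uncertain, because copies that share most of its sequence hold about as many counts as it does (3998 CPM with the copies and 1971 CPM without), which could put it level with or above Hsp90aa1. For the other genes, neighbours in this order differed by more than their SDs as listed, and the step from Dnajb1 to Hspb1 was under 1.5 times. The SDs do not cover the choice of length. Hsp90aa1 (1233 CPM, longest protein-coding transcript 3281 bases) stood above Hspa8 (1971 CPM, 2394 bases) in RPKM, so the lengths used were not those of these transcripts. With other lengths Hspa8 and Hsp90aa1, or Dnajb1 and Hspb1, could change places. In untreated KO cells Hspb1 (18.3 ± 1.09 RPKM) stood above Dnajb1 (12.9 ± 0.374), and Hspb7 (4.67 ± 0.758) above Hspa1b (3.20 ± 0.398) and Hspa1a (1.21 ± 0.515). The stress-inducible HSP70 genes thus lay more than 100 times under their constitutive relative Hspa8 in these cultures. Together the 10 genes took 0.717 ± 0.013% of all counts in untreated WT, 0.726 ± 0.0137% in treated WT, 0.936 ± 0.0248% in untreated KO (SD, n = 4 each) and 0.937 ± 0.026% in treated KO libraries (SD, n = 3).

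**Figure D1:**
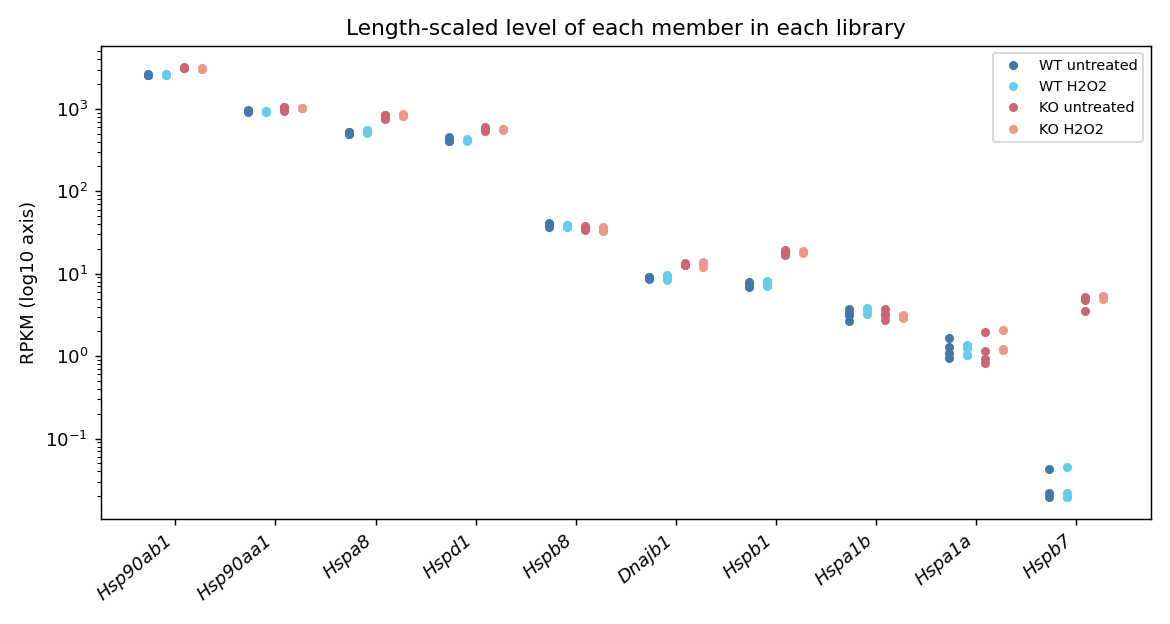
RPKM (log10 axis) of the 10 heat shock genes in each of the 15 libraries, 1 point per library, ordered by the mean in untreated WT. The 4 abundant genes lie above 100 RPKM in every library, and Hspb7 is the 1 gene whose WT and KO points lie decades apart. The untreated WT library with 0 counts of Hspb7 cannot be drawn on a log axis.

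Promoter windows show what stands near the starts of these genes. RefSeq windows of GRCm38.p6, 250 bases before to 50 after a start, were found for 7 of the 10 genes (9 windows), and 6 are printed: the 3 small heat shock genes, because they behaved differently from each other, the Hspa1a and Hspa1b pair, because their windows are nearly the same, and the downstream window of Hspd1. Capitals mark paired units of the heat shock element, searched as GAANNTTC and TTCNNGAA, each of which reads the same on both strands. The motifs may overlap by 3 bases, as in Hspd1. Of 32851 windows of this length, 7.86% hold GAANNTTC, 8.52% hold TTCNNGAA and 15.1% hold either.
Hspb1, chr5:135887669-135887968, plus strand: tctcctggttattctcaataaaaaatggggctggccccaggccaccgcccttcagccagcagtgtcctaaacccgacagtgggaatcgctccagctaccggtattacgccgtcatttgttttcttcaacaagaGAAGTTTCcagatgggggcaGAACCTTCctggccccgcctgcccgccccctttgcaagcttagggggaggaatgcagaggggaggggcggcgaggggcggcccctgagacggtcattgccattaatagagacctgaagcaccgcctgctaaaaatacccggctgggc
Hspb7, chr4:141420529-141420828, plus strand: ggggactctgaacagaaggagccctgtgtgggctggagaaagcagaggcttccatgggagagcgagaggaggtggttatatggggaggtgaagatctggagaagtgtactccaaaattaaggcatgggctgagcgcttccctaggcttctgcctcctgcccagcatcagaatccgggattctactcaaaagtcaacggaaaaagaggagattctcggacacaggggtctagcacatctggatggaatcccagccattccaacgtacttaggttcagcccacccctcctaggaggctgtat
Hspb8, chr5:116422815-116423114, minus strand: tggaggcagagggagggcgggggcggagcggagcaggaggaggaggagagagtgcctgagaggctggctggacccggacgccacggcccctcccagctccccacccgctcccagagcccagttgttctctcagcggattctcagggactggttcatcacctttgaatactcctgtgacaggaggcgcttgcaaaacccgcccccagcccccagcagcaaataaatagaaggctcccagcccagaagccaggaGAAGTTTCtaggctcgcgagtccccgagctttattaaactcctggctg
Hspa1a, chr17:34972107-34972406, minus strand: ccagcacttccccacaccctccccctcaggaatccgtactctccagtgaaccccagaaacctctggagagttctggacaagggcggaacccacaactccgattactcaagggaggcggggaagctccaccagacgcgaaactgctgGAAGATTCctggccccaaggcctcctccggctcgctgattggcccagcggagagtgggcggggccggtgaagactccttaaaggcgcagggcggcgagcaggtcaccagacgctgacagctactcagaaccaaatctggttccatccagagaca
Hspa1b, chr17:34959189-34959488, minus strand: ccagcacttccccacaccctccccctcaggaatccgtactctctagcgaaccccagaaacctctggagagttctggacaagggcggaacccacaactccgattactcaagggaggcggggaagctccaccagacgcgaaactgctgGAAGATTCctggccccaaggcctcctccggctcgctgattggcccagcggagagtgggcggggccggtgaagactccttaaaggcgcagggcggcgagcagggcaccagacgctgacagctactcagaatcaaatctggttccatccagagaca
Hspd1, chr1:55087883-55088182, minus strand: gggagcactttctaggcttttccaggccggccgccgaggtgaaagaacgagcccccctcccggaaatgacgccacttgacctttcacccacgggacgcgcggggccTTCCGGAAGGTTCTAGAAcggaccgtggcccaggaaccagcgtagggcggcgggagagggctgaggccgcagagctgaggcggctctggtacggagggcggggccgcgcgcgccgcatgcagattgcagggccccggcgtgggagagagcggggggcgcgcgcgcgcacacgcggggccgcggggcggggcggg
The Hspb1 window holds GAANNTTC at 2 places, starting at offsets -117 and -97 from the gene start, and the Hspb8 window holds 1, starting at offset 2, inside the transcript. Neither motif is in the Hspb7 window. Hspa1a and Hspa1b each hold 1 GAANNTTC at offset -104, and their windows match at 296 of 300 positions. Counted from 1 at the 5′ end of the window, with the Hspa1a base first, the differences are C44T, T47C, T249G and C276T. The Hspd1 window starts from a RefSeq start 311 bases inside the gene and holds TTCNNGAA, GAANNTTC and TTCNNGAA in an overlapping run. Of all windows, 0.603% hold at least the shorter arrangement in which either motif overlaps the other by 3 bases. The share with the longer run of Hspd1 was not counted. The window at the outer Hspd1 start and both Dnajb1 windows hold neither motif. A match describes letters only and says nothing of binding.

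Did loss of Clic4 change the heat shock genes in untreated cells? Of the 10 genes, 7 were higher in KO, 0 were lower and 3 did not pass (edgeR's quasi-likelihood test, Benjamini-Hochberg adjusted p under 0.05, which is what "called" means throughout). Much of the transcriptome differed between these lines: 66.8% of all tested genes were called, 33.9% higher and 32.9% lower. The median log2 fold change was 0.39 over the 10 genes and 0.00 over all 13085 genes. Since the 10 genes were chosen with earlier results of these data known, this contrast is descriptive only. The 7 ran from Hspb7, which was nearly silent in WT, through Hspb1 at 2.57 times the WT level, to Hsp90aa1 at 1.10 times. Bulk counts cannot tell more expressing cells from more mRNA per cell. Where genotypes are said below not to overlap, the share of all tested genes that separate likewise was not counted.

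**Figure D2:**
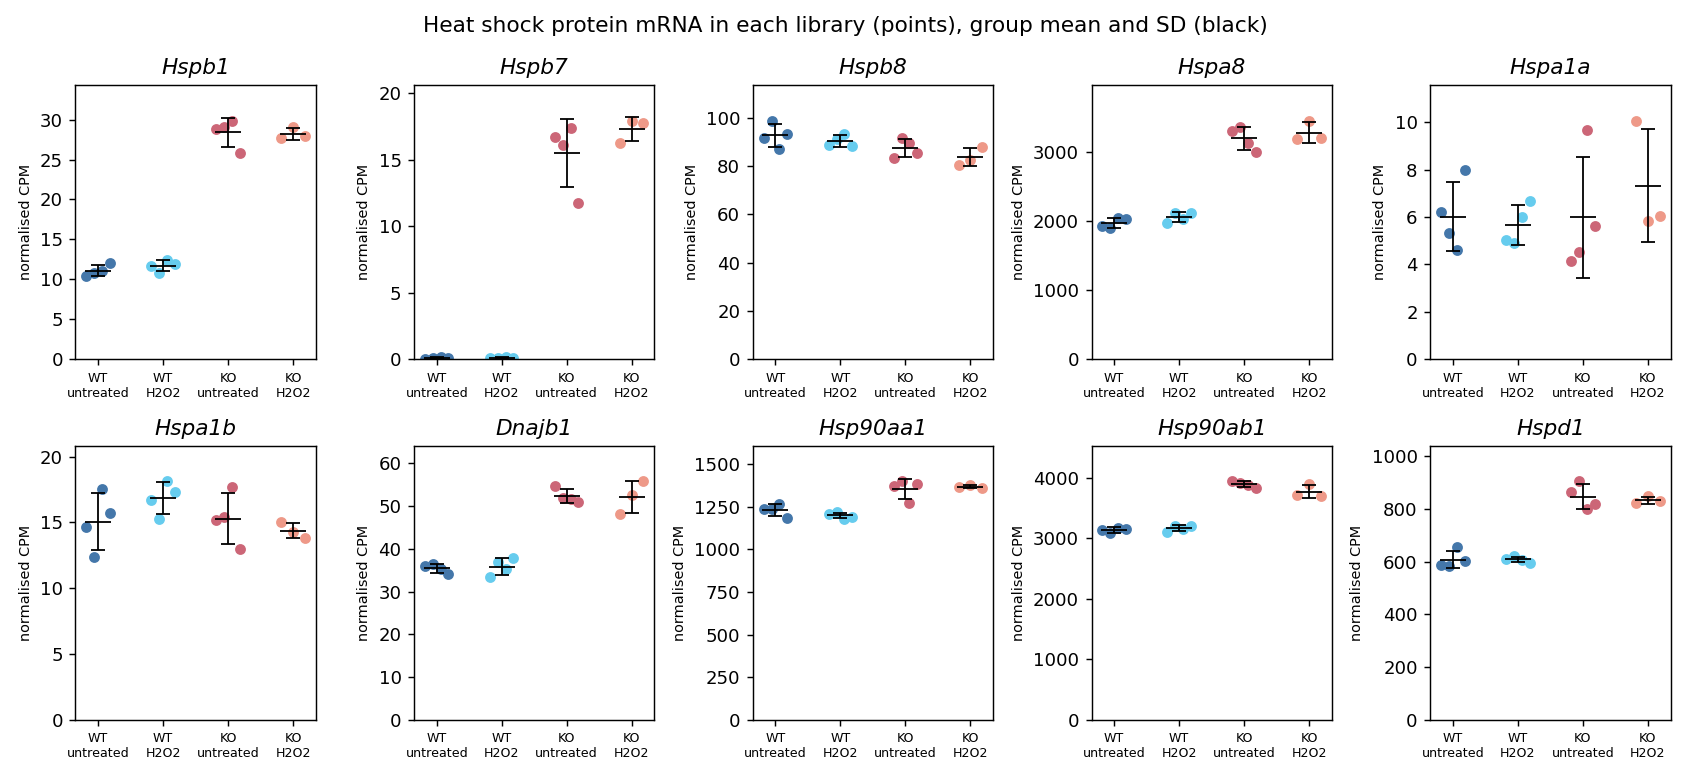
Normalised CPM of each gene in the 15 libraries (points) by group, with the group mean and SD in black and axes that start at 0. KO points lie above all WT points for Hspb1, Hspb7, Hspa8, Dnajb1, Hsp90aa1, Hsp90ab1 and Hspd1, whereas Hspa1a, Hspa1b and Hspb8 overlap between genotypes over the 15 libraries. The share of all tested genes whose genotypes separate in this way was not counted.

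The small heat shock genes took 3 different courses. Hspb7 (chromosome 4, 141420779 to 141425311, plus strand, GENCODE M21 on mm10) encodes a small heat shock protein best known from heart and skeletal muscle, where it binds the actin and filamin scaffold. Untreated WT libraries held 0, 1, 2 and 1 counts, and untreated KO libraries 218, 235, 275 and 176 counts. In CPM the KO libraries stood at 16.7, 16.1, 17.4 and 11.8, with replicate 4 lowest, and no WT library was above 0.15. The ratio of KO to WT was 228 (95% exact binomial interval 88.8 to 839, which covers counting error only), with adjusted p 2.84e-20 by edgeR. Markers of muscle summed to 3.26 to 4.17 CPM in untreated WT and 5.05 to 6.71 CPM in untreated KO, with 8 and 9 of 16 markers at 0, and their part in the Hspb7 result was not tested. Clic4 lies 6.15 Mb away on the same chromosome. Of 18 tested genes that start within 500 kb of Hspb7, 5 were higher and 6 lower in KO, beside 33.9% and 32.9% of all tested genes. The log2 fold changes of the 18 ran from -0.91 to 0.55 against 7.66 for Hspb7.

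Hspb1 (chromosome 5, 135887919 to 135889563, plus strand) encodes HSP25, the mouse counterpart of human HSP27, which holds unfolding proteins and caps actin filaments. It stood at 10.4, 10.8, 11.1 and 12.0 CPM in untreated WT and 28.8, 29.1, 29.9 and 25.8 CPM in untreated KO. The groups did not overlap, and the lowest KO library, replicate 4, was still above 2 times the highest WT library. The log2 fold change was 1.36 (SE 0.07, adjusted p 6.00e-16, edgeR). Around Hspb1, 6 of 17 tested genes within 500 kb were higher and 5 lower, with a median log2 fold change of 0.06. These counts are near the shares over all tested genes, 33.9% higher and 32.9% lower. Its processed copy Hsp25-ps1 holds 51.6% of the 50-base windows of the Hspb1 transcript but only 17 counts in all 15 libraries, against 4167 for Hspb1.

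Hspb8 (chromosome 5, 116408491 to 116422864, minus strand), which works with the cochaperone BAG3 in the selective autophagy of misfolded proteins, lies 19.5 Mb from Hspb1 and went no such way. Untreated WT libraries stood at 91.8, 98.9, 87.2 and 93.6 CPM and KO libraries at 83.6, 91.5, 89.6 and 85.4 CPM, so the groups overlapped. Its log2 fold change was -0.08 (95% interval -0.17 to 0.00, adjusted p 0.0855, edgeR). The call depended on single libraries: adjusted p was 0.0465 without KO replicate 2 and 0.0171 without WT replicate 11. Bag3 itself had a log2 fold change of -0.09 (adjusted p 0.0545) here and was called lower in KO with H2O2 present (-0.21, adjusted p 0.000133, edgeR).

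The HSP70 genes split into constitutive and inducible. Hspa8 (chromosome 9, 40800984 to 40810087, plus strand) encodes HSC70, the abundant everyday HSP70 that also uncoats clathrin vesicles and serves chaperone-mediated autophagy. It stood at 1917, 1897, 2045 and 2026 CPM in untreated WT and 3302, 3356, 3118 and 2997 CPM in untreated KO. Every KO library lay above every WT library, by a log2 fold change of 0.70 (SE 0.04, adjusted p 7.39e-15, edgeR). The difference of group means, 3193 against 1971 CPM, was the largest of the 10 genes in CPM.

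Part of the reads of Hspa8 cannot be told from those of a copy on chromosome 5, where the processed pseudogene Gm15459 (5781615 to 5783555, minus strand) and the long noncoding RNA gene Gm26825 (5781530 to 5783636, plus strand) overlap on opposite strands. Gm15459 holds 70.0% of the 50-base windows of the Hspa8 transcript in sense, and Gm26825 holds 69.0% in antisense. Over all libraries Gm15459 had 302854 counts and Gm26825 265784, against 559662 for Hspa8. Both copies are credited with many counts although they lie on opposite strands, and how strand was used in the counting is not given in the sources used here. In untreated cells Gm15459 was at 1060 ± 24.5 CPM in WT and 1743 ± 81.5 in KO (SD, n = 4 each, log2 fold change 0.72), and Gm26825 at 966 ± 21.4 and 1432 ± 90.8 CPM (0.57). Hspa8 made up 49.3% of the 3 genes' counts in untreated WT and 50.1% in untreated KO. With the 3 genes summed, which was decided after the data were seen, the level was 3998 ± 112 CPM in WT and 6368 ± 323 CPM in KO (SD, n = 4 each), a log2 fold change of 0.67 (SE 0.04, adjusted p 3.72e-15, edgeR). The level of Hspa8 itself may therefore be above or below the value listed, while the log2 difference between genotypes was 0.70 alone and 0.67 summed.

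Hspa1a and Hspa1b (chromosome 17, 34969190 to 34972156 and 34956436 to 34959238, both minus strand) encode the inducible HSP70 that HSF1 drives after heat. Of the 50-base windows of the Hspa1a transcript, 58.8% stand in Hspa1b too, so that their counts may be divided between the genes in part by estimation. Hspa1a stood at 6.21, 5.31, 4.59 and 7.97 CPM in untreated WT and 4.14, 4.52, 9.68 and 5.61 CPM in untreated KO. Hspa1b stood at 14.6, 12.4, 17.5 and 15.7 CPM in untreated WT and 15.2, 15.4, 17.7 and 13.0 CPM in untreated KO. The genotypes overlapped for both genes. The log2 fold change was 0.00 for Hspa1a (95% interval -0.62 to 0.62, adjusted p 0.996) and 0.02 for Hspa1b (-0.17 to 0.22, adjusted p 0.85, edgeR). Summed, the pair stood at 20.9, 17.7, 22.1 and 23.7 CPM in WT and 19.3, 19.9, 27.3 and 18.6 CPM in KO, with a log2 fold change of 0.02 (-0.25 to 0.28, adjusted p 0.919). Hspa1a was the most variable of the 10 genes above 1 CPM, with a coefficient of variation of 42.5% in untreated KO where counting alone gives 10.6%. KO replicate 3 and treated KO replicate 5 held the highest Hspa1a values, 9.68 and 10.1 CPM, and also the highest sums of the pair, 27.3 and 25.1 CPM. Dnajb1 in those 2 libraries, 51.6 and 48.2 CPM, was not high.

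Dnajb1 (chromosome 8, 83608193 to 83612653, plus strand) encodes HSP40, the J-domain protein that brings clients to HSP70 and itself a heat-inducible gene. It stood at 36.1, 36.4, 35.2 and 34.1 CPM in untreated WT and 54.7, 52.0, 51.6 and 51.1 CPM in untreated KO. The groups lay well apart, with a log2 fold change of 0.56 (SE 0.05, adjusted p 2.72e-10, edgeR). Dnajb1 therefore rose in KO cells in which its inducible HSP70 partners did not pass the test.

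Both cytosolic HSP90 genes were higher in KO by less. Hsp90ab1 (chromosome 17, 45567775 to 45573271, minus strand), the constitutive HSP90 beta, stood at 3137, 3082, 3178 and 3160 CPM in untreated WT and 3943, 3917, 3882 and 3828 CPM in KO. Replicates were tight, and the groups did not overlap (log2 fold change 0.31, SE 0.03, adjusted p 8.61e-10, edgeR). Hsp90aa1 (chromosome 12, 110690605 to 110702728, minus strand), the stress-responsive HSP90 alpha, stood at 1240, 1236, 1269 and 1187 CPM in WT and 1374, 1399, 1270 and 1384 CPM in KO. Here the lowest KO library, replicate 3 at 1270.3 CPM, only just cleared the highest WT library, replicate 11 at 1268.7 CPM, and the log2 fold change was 0.14 (SE 0.03, adjusted p 0.000822, edgeR).

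Hspd1 (chromosome 1, 55077835 to 55088243, minus strand) encodes HSP60, the barrel that folds imported proteins in the mitochondrial matrix with its lid Hspe1. It stood at 586, 585, 656 and 603 CPM in untreated WT and 862, 904, 798 and 820 CPM in untreated KO. No WT library reached the KO range, and the log2 fold change was 0.48 (SE 0.04, adjusted p 2.23e-11, edgeR). The Hspe1 gene starts 111 bases away on the other strand, inside Hspd1, and rose from 133 to 167 CPM (log2 fold change 0.33, adjusted p 1.12e-06).

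**Figure D3:**
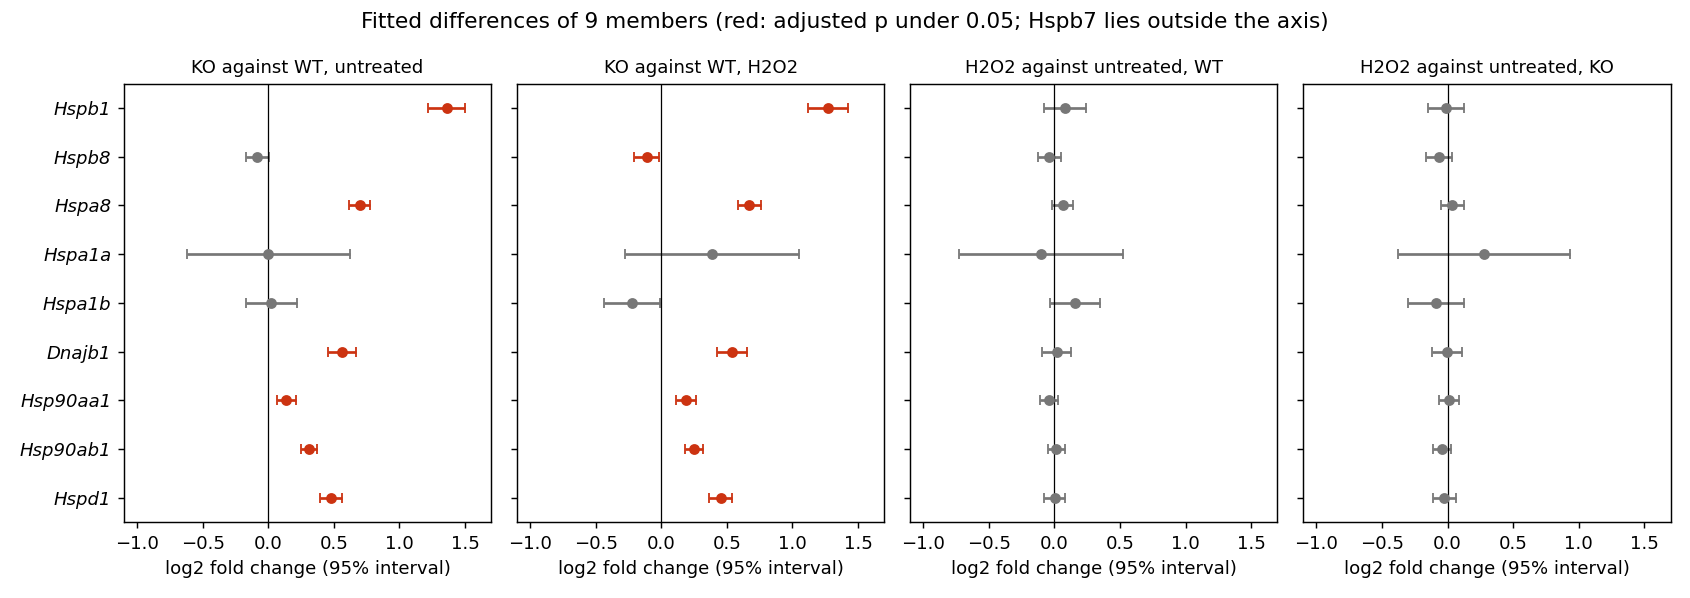
Fitted log2 fold change with its 95% interval for 9 of the 10 genes in 4 comparisons, red where adjusted p was under 0.05. Hspb1, Hspa8, Dnajb1, Hsp90aa1, Hsp90ab1 and Hspd1 lie right of 0 in both genotype panels, Hspa1b changes sides between them, and all intervals for H2O2 against untreated cells include 0. Hspb7 is left out because its log2 fold changes between genotypes, 7.66 and 7.54, lie beyond the axis.

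Under peroxide the genotypes were compared again in other libraries. Of the 10 genes, 7 were higher, 1 was lower and 2 did not pass (edgeR, adjusted p under 0.05), beside 65.4% of all tested genes called, 33.0% higher and 32.4% lower. The 7 higher genes were those that were higher without treatment. Hspb7 had 1, 1, 2 and 1 counts in treated WT and 234, 261 and 217 in treated KO, a ratio of 205 (95% exact binomial interval 87.5 to 634). Hspb1 stood at 11.7, 10.8, 12.4 and 11.9 CPM in treated WT and 27.6, 29.0 and 27.9 CPM in treated KO (log2 fold change 1.27, adjusted p 1.26e-14). Hspa8 stood at 1974, 2112, 2028 and 2117 CPM against 3180, 3446 and 3189 CPM (0.67, adjusted p 9.04e-14). All KO libraries were above all WT libraries for these 3 genes, and how many of all tested genes separate likewise was not counted.

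Dnajb1 was at 33.4, 36.9, 35.3 and 37.9 CPM in treated WT and 48.2, 52.5 and 55.8 CPM in treated KO (log2 fold change 0.54, adjusted p 3.10e-09, edgeR). Hspd1 was at 610, 620, 607 and 595 CPM against 820, 848 and 829 CPM (0.45, adjusted p 3.19e-10). Hsp90ab1 was at 3100, 3212, 3154 and 3209 CPM against 3720, 3898 and 3698 CPM (0.25, adjusted p 1.80e-07), and Hsp90aa1 at 1208, 1218, 1181 and 1191 CPM against 1368, 1376 and 1359 CPM (0.19, adjusted p 5.54e-05). These groups did not overlap either, and Hsp90aa1 was separated more clearly than without treatment.

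Hspb8 was the lower gene, at 88.6, 91.4, 93.4 and 88.4 CPM in treated WT and 80.6, 82.7 and 88.0 CPM in treated KO (log2 fold change -0.11, SE 0.05, adjusted p 0.0397, edgeR). The highest KO library, at 88.03 CPM, lay just under the lowest WT library, at 88.44 CPM, and 1 library decided the call in several cases: adjusted p was 0.176 without KO replicate 5, 0.113 without KO replicate 7, 0.0739 without WT replicate 14 and 0.1 without WT replicate 15. The call was also lost with no filter on low counts (adjusted p 0.0505). Hspa1b was at 16.7, 15.3, 18.1 and 17.3 CPM against 15.0, 14.3 and 13.8 CPM and missed the threshold although the groups did not overlap (log2 fold change -0.22, 95% interval -0.44 to -0.01, adjusted p 0.0584). It was called lower in 8 of 23 alternative analyses, with adjusted p from 0.015 to 0.154. Among them was that without treated WT replicate 14 (0.0332). Others left out untreated KO replicate 3 (0.0432) or 4 (0.0403), or untreated WT replicate 10 (0.0413) or 11 (0.0439). These untreated libraries are not in this contrast and only share its fit, and without them the log2 fold change stayed between -0.22 and -0.23. Hspa1a was at 5.04, 4.92, 6.01 and 6.68 CPM against 10.1, 5.84 and 6.05 CPM (log2 fold change 0.38, -0.28 to 1.05, adjusted p 0.287). For the summed pair the log2 fold change was -0.05 (-0.33 to 0.24, adjusted p 0.78).

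Did 1 µM H2O2 for 24 h change the heat shock genes? None of the 10 was called in WT or in KO cells by edgeR, DESeq2 or limma-voom, and 0 had an unadjusted edgeR p under 0.05 in either genotype. The background of calls was as low: 0.0153% of all tested genes were called in WT (2 of 13085) and 0.0535% in KO (7 of 13085). Without adjustment, 847 of the 13085 tested genes in WT and 1041 in KO had an edgeR p under 0.05. In WT the smallest adjusted p of the 10 was 0.827, for Hspa1b (log2 fold change 0.16, 95% interval -0.04 to 0.35). In KO it was 0.766, for Hspb7 (0.16, -0.07 to 0.39). The intervals limit what could have been missed. For Hspa8 they ran from -0.02 to 0.14 in WT and -0.05 to 0.12 in KO, for Dnajb1 from -0.10 to 0.13 and -0.12 to 0.11, and for Hspb1 from -0.08 to 0.24 and -0.15 to 0.13. For Hsp90aa1 the limit farthest from 0 was -0.11 in WT, and for Hsp90ab1 and Hspd1 it was -0.11 in KO. Only Hspa1a (-0.73 to 0.52 in WT, -0.38 to 0.94 in KO) and, with its few counts in WT, Hspb7 (-1.42 to 1.98) had limits beyond 0.5 on the log2 scale.

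The response to peroxide was also compared between genotypes. The interaction was called for 0 of the 10 genes by edgeR, DESeq2 and limma-voom, and for 0% of all tested genes by edgeR. Without adjustment, 0 of the 10 had an edgeR p under 0.05, beside 808 of the 13085 tested genes. The smallest adjusted p was 0.857, for Hspa1b (log2 difference of responses -0.25, 95% interval -0.53 to 0.04). The 4 groups share control libraries across these comparisons, so the values above stand side by side and are not independent of each other.

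The 10 genes sit in a wider chaperone network, of which 87 further genes in 7 lists were read in the same fit and 82 were tested. In untreated cells 44 were higher in KO, 17 lower and 21 did not pass, with a median log2 fold change of 0.15 against 0.00 over all genes. The lists too were chosen with earlier results of these data known, so their contrasts with all genes are descriptive. Over all tested genes 66.8% were called, 33.9% higher and 32.9% lower, and the count for each list stands against those shares. The cytosolic chaperonin and prefoldin list, whose ring folds actin and tubulin, had 11 of 14 genes higher and 2 lower (median 0.29). All 8 subunits of the ring itself were among the higher ones, counted after the values were seen. Cct5 rose from 360 ± 8.21 to 512 ± 13.8 CPM (SD, n = 4 each, log2 fold change 0.51), Cct6a from 198 ± 8.98 to 268 ± 11.8 (0.44) and Cct3 from 234 ± 4.66 to 313 ± 9.7 (0.42). The lower members, Pfdn1 (-0.21) and Pfdn5 (-0.16), belong to prefoldin, which hands clients to the ring. They are named after their values were seen.

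Among 22 cochaperones of HSP70 and HSP90, 14 were higher and 4 lower (median 0.22). Fkbp5, a prolyl isomerase that rides on HSP90 and steroid receptors, rose from 85.8 ± 2.96 to 152 ± 5.07 CPM (SD, n = 4 each, log2 fold change 0.82, adjusted p 6.41e-17, edgeR). Bag4, a nucleotide exchange factor of HSP70, rose from 23.7 to 32.0 CPM (0.43). Unc45a, which brings HSP90 to myosin, fell from 45.0 ± 4.28 to 27.8 ± 2.74 CPM (-0.69). J-domain proteins went both ways, 4 higher and 5 lower of 14 (median -0.07). Dnajc9, a histone chaperone, rose from 23.6 to 47.5 CPM (1.01), whereas Dnaja4 fell from 21.7 to 12.4 CPM (-0.80) and Dnajb6, a suppressor of aggregation, from 168 to 126 CPM (-0.41). These J-domain counts are near the shares over all tested genes, 33.9% higher and 32.9% lower. With H2O2 4 of the 14 were higher and 8 lower, where 33.0% and 32.4% of all genes were.

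Of 9 further HSP70 and HSP110 genes 6 were higher and 0 lower (median 0.15). The called share was like the 66.8% over all genes, where 33.9% were higher and 32.9% lower. With H2O2 3 of the 9 were higher, 0 lower and 6 did not pass, beside 33.0% higher and 32.4% lower over all genes. Hspa12a, a distant HSP70 relative, rose from 0.288 ± 0.0631 to 5.12 ± 0.752 CPM (SD, n = 4 each, log2 fold change 4.12), Hspa14 from 42.1 to 48.8 CPM (0.21) and Hspa4 from 301 to 333 CPM (0.15). With H2O2 present Hspa4 did not pass (0.07, adjusted p 0.146). Hsph1, the heat-inducible HSP110, was at 205 CPM in WT and 201 CPM in KO (-0.03, adjusted p 0.559). Of 7 further small heat shock proteins 4 could be tested, with 2 higher and 1 lower. Hspb2 rose from 3.22 to 10.2 CPM (1.65) and Hspb6 from 8.38 to 13.2 CPM (0.65). Cryab, the alpha B-crystallin whose gene starts 1029 bases from Hspb2 on the opposite strand, fell from 85.8 to 75.9 CPM (-0.18, adjusted p 0.000708).

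In mitochondria 6 of 14 chaperones and proteases were higher and 4 lower (median 0.08), near the 66.8% of all genes called in either direction. Trap1, the HSP90 of the matrix, rose from 109 ± 5.22 to 161 ± 3.85 CPM (SD, n = 4 each, log2 fold change 0.56), like Hspd1 and Hspe1. The mitochondrial HSP70 gene Hspa9, named after its value was seen, fell from 1542 to 1420 CPM (-0.12, adjusted p 0.00291, edgeR). With H2O2 present Hspa9 did not pass (-0.07, adjusted p 0.113, edgeR). The protease Lonp1 fell from 385 to 288 CPM (-0.42) and Hscb, the J-domain protein of iron-sulfur cluster assembly, from 14.1 to 9.09 CPM (-0.63). Of 5 tested genes in the list of heat shock factors and their binders, 1 was higher and 1 lower. Hsf1, the main activator of heat shock genes, was at 33.9 CPM in WT and 34.9 CPM in KO (0.04, adjusted p 0.521), and Hsf2 at 21.04 and 20.65 CPM (-0.03, adjusted p 0.777). Hsf4 rose from 1.76 to 5.11 CPM (1.53, adjusted p 6.57e-09), and Hsf2bp, named after its value was seen, fell from 1.58 to 0.922 CPM (-0.79). With H2O2 present the network gave 42 higher and 17 lower of 82, beside 33.0% and 32.4% of all tested genes. For H2O2 against untreated, edgeR, DESeq2 and limma-voom called 0 of the 82 in each genotype. Under an unadjusted edgeR p of 0.05 were 3 of the 82 in WT and 6 in KO, beside 847 and 1041 of all 13085 tested genes.

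**Figure D4:**
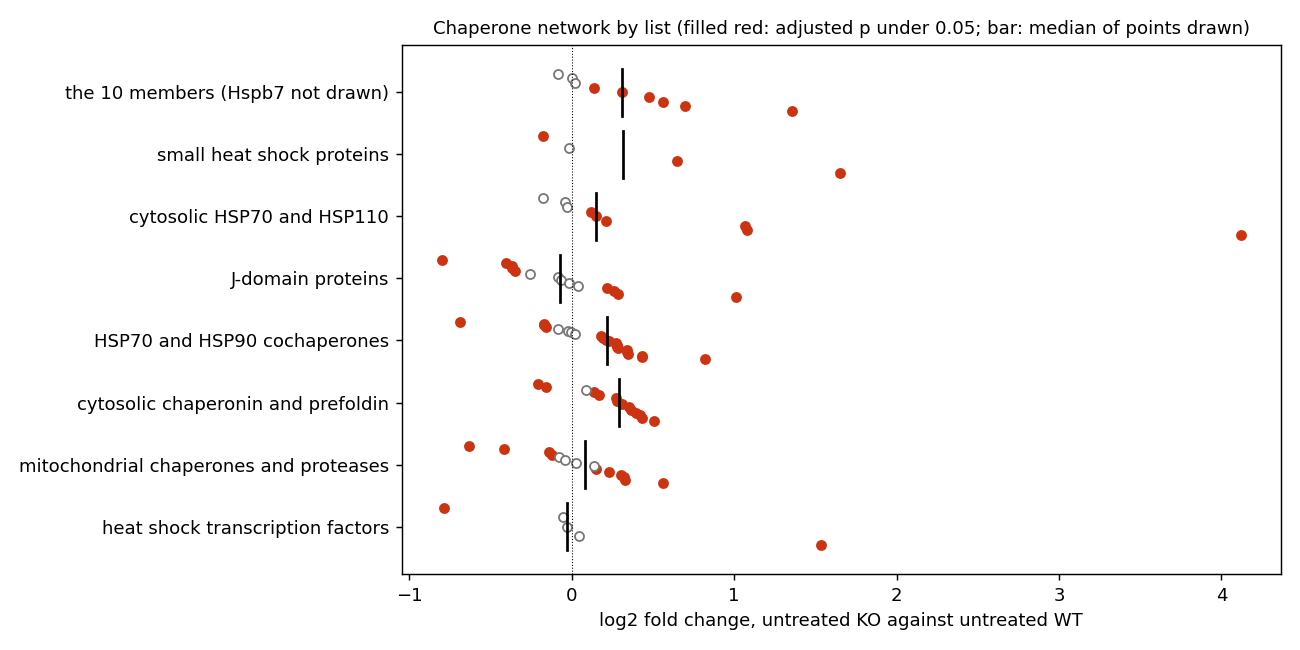
Log2 fold change of untreated KO against untreated WT for the 10 genes (Hspb7 not drawn) and the 82 tested network genes, by list, with filled red points for adjusted p under 0.05, open points otherwise, and a bar at the median of the points drawn. The chaperonin list lies mostly to the right of 0, and J-domain proteins lie on both sides.

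Genes with the most similar profile were sought for Hspb1 and Hspb7, the 2 called members that differed by at least 2 times, as the smallest root mean square difference of log2 values over the 15 libraries after each gene's mean was removed. For Hspb1 they were 3110082I17Rik (difference 0.07), Timeless (0.08) and Shmt1 (0.08), whose log2 fold changes between untreated genotypes were 1.43, 1.36 and 1.37. For Hspb7 they were Col8a1 (0.12), Mgp (0.20) and Gdf15 (0.20), of which Col8a1 and Gdf15 were likewise near 0 in WT, at 0.0348 and 0 CPM. The measure follows mainly the step between genotypes.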

How the data were processed

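Per the labels' protocols, RNeasy RNA went into stranded TruSeq libraries of mRNA, read from both ends by NextSeq. The deposited counts are RSEM expected counts per gene symbol, all whole numbers. The submitters' processing notes name cutadapt, STAR, RSEM and build mm10; versions, annotation and strand setting are not given in the sources used here. The RPKM table was deposited by the authors too and served only to compare levels between genes. Samples were grouped by title.

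Counts were tested with edgeR 4.0.16 (limma 3.58.1, R 4.3.3) over 13085 genes kept by filterByExpr, which hold 99.9% of counts, with TMM scaling and 1 quasi-likelihood model of the 4 groups (11 residual degrees of freedom), adjusted over all genes. SEs are approximate. DESeq2 1.42.0, limma-voom, other filters, scalings and leaving out each library were alternatives. The steps were tested on simulated data. Positions are from GENCODE M21. The 10 genes and the lists were chosen with earlier results of these data known. Network genes were named as the up to 3 called per list with the largest change and at least 5 CPM, and Hsf1, Hsf2, Hsph1, Hspe1, Bag3 and Cryab always.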

Additional observations from a re-analysis of the deposited data

Results flagged for a closer look

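Of 30 groups of 4 libraries checked for the 10 genes, 1 held a library far from the rest, where chance flags about 1 in 20 groups. It was Hspb7 in treated WT replicate 15, at 0.148 CPM against 0.0623 to 0.0718 CPM in the other 3 libraries, which is 2 counts against 1 count in each.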

How the results depend on the processing

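No paired analysis was possible because the groups share no replicate number. Across 24 alternative analyses no called difference of the 10 genes changed sign. In 41 of 1179 values a gene had the opposite sign and was called in neither. The 7 genes higher in KO were called in each of their alternatives in both genotype comparisons, including that without untreated WT replicate 9. Calls moved for Hspb8 and Hspa1b, as given with their values. With Hspb8 in untreated cells also called by upper quartile scaling (-0.10, adjusted p 0.0354), the number of the 10 called was 7 to 8 without treatment and 7 to 9 with H2O2, and 0 in the H2O2 and interaction comparisons. Over all genes, H2O2 in WT gave 2 calls, but 12 with no filter on low counts (any gene with a count), 9 by DESeq2, 0 by limma-voom, 0 with only the groups compared, and 0 to 13 when a library was left out. H2O2 in KO gave 7, but 27 with no filter, 53 by DESeq2 and 0 to 21 when a library was left out. The interaction gave 0, but 5 with no filter, 15 by DESeq2, 3 by limma-voom and 0 to 3 when a library was left out. None of the 10 genes was among any of these. The extremes were 13 without untreated WT replicate 12, 21 without treated WT replicate 15 and 0 without treated KO replicate 8. The causes were not tested. Depth limits Hspb7 in WT, where a library holds at most 2 counts.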

Other observations

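Gm26825, the antisense gene at the Hspa8 copy, stood at 1432 ± 90.8 CPM in untreated KO (SD, n = 4) and 1619 ± 63.5 CPM in treated KO (SD, n = 3), a log2 fold change of 0.18 that did not pass the test over all genes (edgeR, adjusted p 0.137). Gm15459 on the other strand had a log2 fold change of 0.02 in the same comparison (adjusted p 0.931).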
